A study of Mus musculus with 3 samples.

Results

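Expression of 10 genes of the leukotriene and prostaglandin pathways was followed through single-cell RNA profiles of irradiated and unirradiated mouse liver: Alox5, Alox5ap, Lta4h, Ltc4s, Ggt1, Ggt5, Ptgs1, Ptgs2, Ptges and Ptgis. They are 10 of the 31253 genes listed in each library and were picked by symbol. The choice was made with their levels and differences between libraries known, so the values below describe these libraries and test nothing. All 10 genes had at least 1 UMI (a unique molecular identifier, which counts 1 captured RNA molecule) in the kept cells of every library.

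Both pathways start from arachidonic acid, a fatty acid released from membranes. On the leukotriene side, 5-lipoxygenase (Alox5), helped by its activating protein (Alox5ap), makes leukotriene A4, which leukotriene A4 hydrolase (Lta4h) turns into the neutrophil attractant leukotriene B4. Leukotriene C4 synthase (Ltc4s) instead joins leukotriene A4 to glutathione, and gamma-glutamyltransferases (Ggt1, Ggt5) trim the product to leukotriene D4. On the prostaglandin side, the cyclooxygenases Ptgs1 and Ptgs2 make prostaglandin H2, from which Ptges makes prostaglandin E2 and Ptgis makes prostacyclin. Neutrophils and other myeloid cells are the known main source of 5-lipoxygenase products, and endothelium and stroma are known sources of prostacyclin.

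The study set 3 libraries side by side, 1 for each group. The library labelled Gsdmd∆Hep-IR, called dHep_IR, came from irradiated mice with Gsdmd deleted in hepatocytes, although its genotype tag names a knockout and no cell type. The library labelled GsdmdFL/FL -IR, called FL_IR, came from irradiated mice with floxed Gsdmd, and the library labelled GsdmdFL/FL -Ctrl, called FL_control, from floxed mice without irradiation. Both floxed libraries carry a wild-type genotype tag. Throughout, the 3 names stand for the libraries as labelled. Gsdmd encodes the pore-forming protein gasdermin D. Irradiation was 30 Gy, and livers were taken 7 days later. The part of the body exposed, the Cre driver, the exons removed and whether animals were pooled are not given in the sources used here. dHep_IR against FL_IR addresses the deletion under irradiation, and FL_IR against FL_control addresses irradiation. These comparisons share FL_IR, and both comparisons with FL_control share that library.

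After filtering, 7261 cells of dHep_IR, 6545 of FL_IR and 6458 of FL_control remained, with a median of 7967, 7409 and 5838 UMIs per cell. Cells were grouped by marker genes into classes written as X-like. The liver label was borne out only in its non-parenchymal cells, since hepatocyte-like cells numbered 8, 42 and 104. Neutrophil-like cells numbered 1850, 2342 and 459, monocyte-like cells 1166, 475 and 240, Kupffer-like cells (resident liver macrophages) 381, 454 and 583, and endothelial-like cells 3455, 3001 and 2517. Gsdmd stood at 36.9 counts per 1000000 UMIs (CPM) in the library labelled dHep_IR, 7.21 CPM in the library labelled FL_IR and 36.4 CPM in FL_control. The library labelled as the deletion was therefore not the lower one, and with so few hepatocyte-like cells the gene does not check that label. Barcodes seen in more than 1 library numbered 102 and covered 169 of 20264 kept cells. A difference between libraries cannot be told apart from a difference between animals, preparations or library runs. Every interval below is a 95% interval that covers counting error only.

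Reference sequence upstream of the start site is shown for Alox5, Ltc4s and Ptgs2, 3 of the members whose RNA differed between classes or libraries. Each line gives the 250 bases before the start, 5′ to 3′ on the gene's strand, from RefSeq on GRCm38.p6, at chr6:116461179-116461428 (minus strand) for Alox5, chr11:50238533-50238782 (minus strand) for Ltc4s and chr1:150099781-150100030 (plus strand) for Ptgs2. Capitals mark matches to the motifs searched on both strands.
Alox5: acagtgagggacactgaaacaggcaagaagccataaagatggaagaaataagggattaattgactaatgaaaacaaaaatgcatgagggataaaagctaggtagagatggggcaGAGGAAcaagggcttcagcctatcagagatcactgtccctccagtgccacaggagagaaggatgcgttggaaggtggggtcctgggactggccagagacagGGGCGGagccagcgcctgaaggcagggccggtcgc
Ltc4s: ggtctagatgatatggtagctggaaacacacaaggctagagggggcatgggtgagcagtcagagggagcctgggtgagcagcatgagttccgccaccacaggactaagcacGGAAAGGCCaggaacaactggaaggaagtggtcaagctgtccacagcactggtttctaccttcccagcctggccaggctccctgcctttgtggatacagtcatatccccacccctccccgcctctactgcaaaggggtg
Ptgs2: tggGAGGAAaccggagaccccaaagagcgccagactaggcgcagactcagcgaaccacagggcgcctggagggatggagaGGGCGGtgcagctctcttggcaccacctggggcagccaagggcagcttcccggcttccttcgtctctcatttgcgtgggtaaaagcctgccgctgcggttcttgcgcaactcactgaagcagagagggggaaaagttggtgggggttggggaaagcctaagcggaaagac

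The PU.1 core GAGGAA, which 23.3% of 32817 such windows hold, occurred 136 bases upstream of Alox5 and 247 bases upstream of Ptgs2. A GC box (GGGCGG, in 32.7% of windows) occurred 35 bases upstream of Alox5 and 170 bases upstream of Ptgs2. An NF-kB-type match (GGNNTTTCC, in 4.93% of windows) lay on the opposite strand 139 bases upstream of Ltc4s, where it reads GGAAAGGCC on the printed strand. No capitals overlap. The letters of a TATA box (TATAAA, 12.4% of windows), a cyclic AMP response half-site (TGACG, 17.7%) and an AP-1 site (TGANTCA, 6.75%) were not in these 3 windows. These matches describe the letters and say nothing of binding. The windows held 52.8% G and C for Alox5, 57.6% for Ltc4s and 61.6% for Ptgs2, against a median of 52.4% over all windows. Entries were present for 7 of the 10 members, and Alox5ap, Ggt5 and Ptgis had none. In the GENCODE vM21 annotation of GRCm38, Alox5 lies on chromosome 6 (116410077 to 116461178), Ltc4s on chromosome 11 (50236461 to 50238616) and Ptgs2 on chromosome 1 (150100031 to 150108227), so the RefSeq start of Ltc4s used here falls inside that interval. Ggt1 and Ggt5 are neighbours on chromosome 10, on the same strand with 3139 bases between them. Ltc4s overlaps Gm26542 on the opposite strand, which had 176 UMIs against 11596 for Ltc4s, and no source used here states whether counting used strand.

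Most UMIs of Alox5, Alox5ap, Ggt1 and Ggt5 in the irradiated livers lay in neutrophil-like cells and most of those of Ltc4s in endothelial-like cells. Neutrophil-like cells held 94.4% of the Alox5 UMIs of dHep_IR, 96.5% of those of FL_IR and 38.4% of those of FL_control. For Ggt1 the neutrophil-like shares were 94.8%, 97.7% and 0%, and for Alox5ap 81.3%, 89.3% and 27.6%. Endothelial-like cells held 90.9% of the Ltc4s UMIs of dHep_IR, 96.1% of those of FL_IR and 40.6% of those of FL_control. Ptgs1 lay mostly in endothelial-like cells (51.1%, 53.7% and 61.5%) and Kupffer-like cells (36.1%, 36.5% and 32.6%). These shares follow both the level per cell and the number of cells of each class captured.

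FL_control differed from the irradiated libraries in one more way. It held a cluster of 79 cells, numbered 17, that was left without a class name because its leading genes (Prg4, Alox15, Ccl24, Serpinb2) are known from macrophages of the peritoneal cavity. In it Alox5 stood at 157 CPM, with a UMI in 86.1% of cells, Ltc4s at 1114 CPM (98.7% of cells) and Ptgis at 427 CPM (86.1% of cells). Those 79 cells carried 219 of the 432 Alox5 UMIs of FL_control, 1559 of its 3367 Ltc4s UMIs and 24 of its 44 Ptges UMIs. Whole-library levels of these genes in FL_control therefore rest partly on a cluster that held 1 kept cell of dHep_IR and none of FL_IR, and the comparisons below stay within classes.

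**Figure D1:**
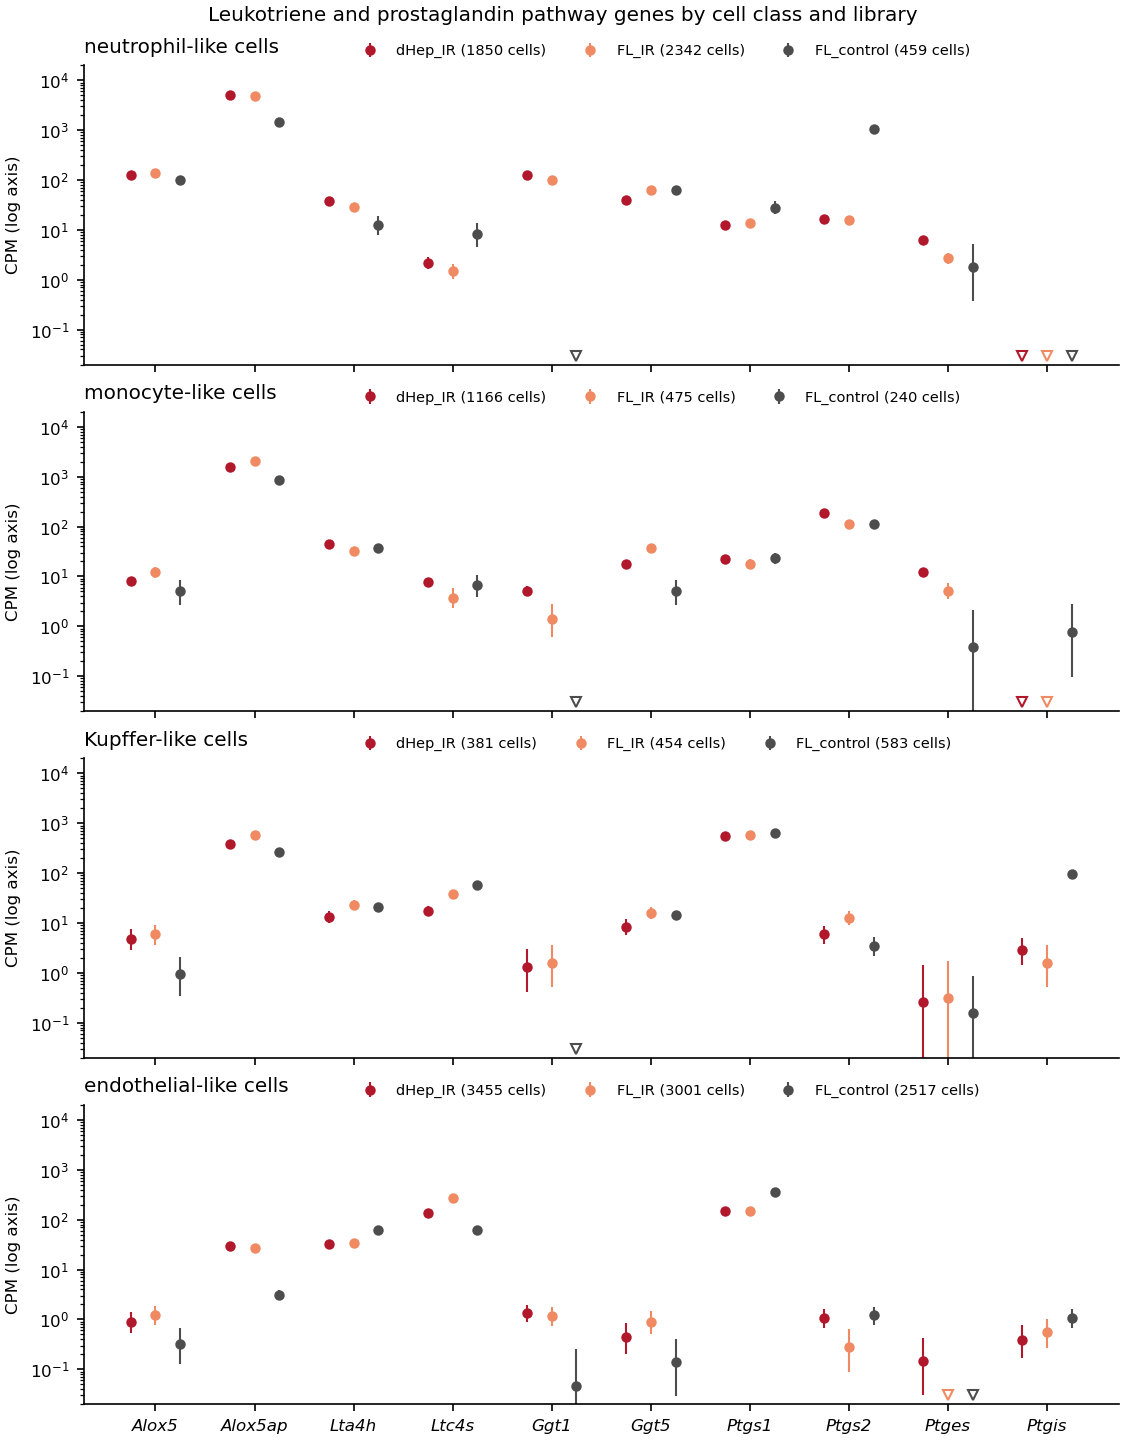
Level of the 10 genes in CPM (log axis) in neutrophil-like, monocyte-like, Kupffer-like and endothelial-like cells of dHep_IR, FL_IR and FL_control, left to right in each panel. Points are class sums of 1 library, bars are 95% Poisson intervals for counting error only, and open downward triangles mark 0 UMIs. Alox5 and Alox5ap stand highest in neutrophil-like cells in every library, and Ptgs2 in neutrophil-like cells is at 16.4 CPM in dHep_IR and 16.0 CPM in FL_IR, against 1067 CPM in FL_control.

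A member was called in a class when its CPM differed at least 2-fold between 2 libraries with at least 20 UMIs over both. For dHep_IR against FL_IR, 8 of 36 member-by-class values were called, 5 higher and 3 lower in dHep_IR, beside 4.61% higher and 3.58% lower among all gene-by-class values. For dHep_IR against FL_control, 22 of 47 were called, 14 higher and 8 lower, beside 7.19% and 17.8% of all values. For FL_IR against FL_control, 19 of 36 were called, 14 higher and 5 lower, beside 7.84% and 17.0%. Since members were chosen with these differences known, nothing is read from counts above the background. No member was called in T-like cells in any comparison. Only 3, 5 and 3 members had enough UMIs there, in the same order of comparisons. Of all genes in that class, 7.31%, 13.4% and 12.3% were called either way.

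Over all genes, lower calls were the more frequent ones against FL_control. In neutrophil-like cells the median log2 ratio to FL_control was 0.36 over 9 members and -0.65 over all genes in dHep_IR, and 0.40 over 9 members and -0.58 over all genes in FL_IR. TMM scaling adds 0.94 to every log2 ratio of dHep_IR against FL_control in that class and 0.85 to those of FL_IR against FL_control, so a neutrophil ratio to FL_control is best read against those medians. In the other main classes TMM added 0.07 to 0.27. Between dHep_IR and FL_IR the median log2 ratio was 0.10 over members and -0.09 over all genes for neutrophil-like cells, 0.42 and -0.04 for monocyte-like cells, -0.79 and -0.14 for Kupffer-like cells, and -0.05 and -0.08 for endothelial-like cells.

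**Figure D2:**
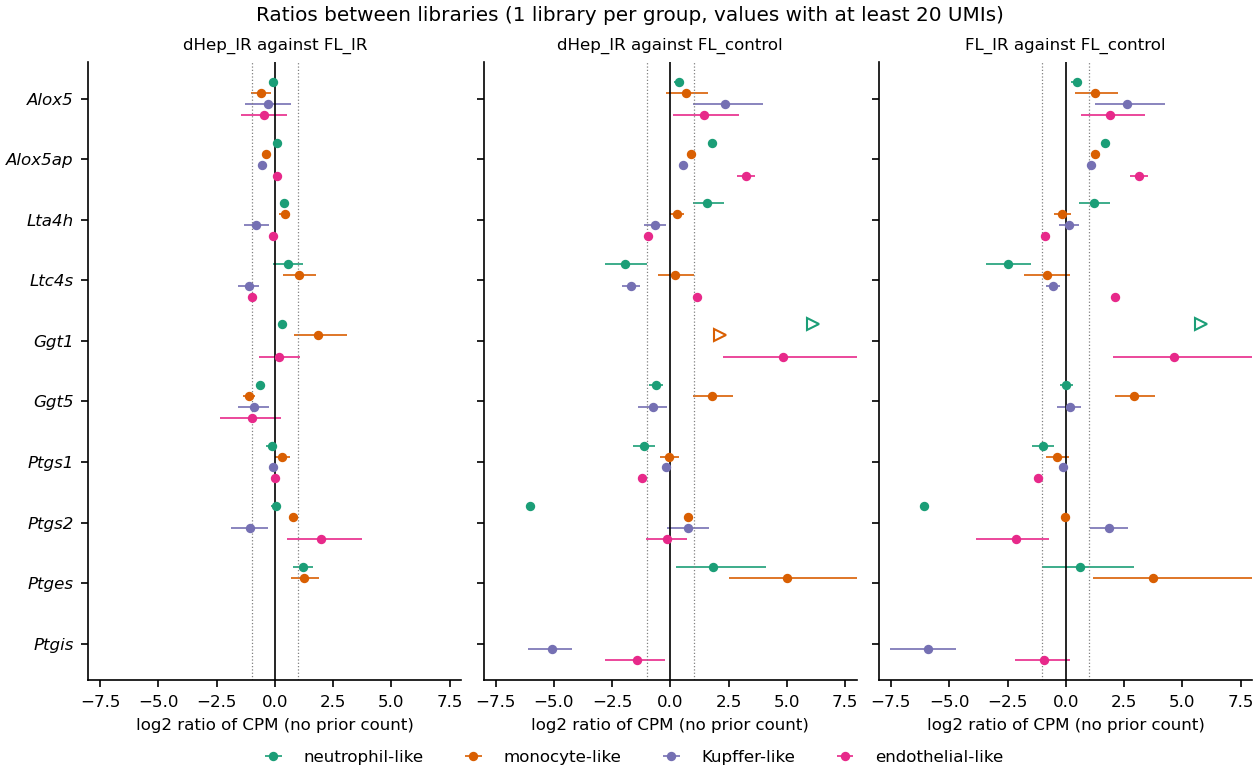
Log2 ratio of CPM for each gene in 4 classes, in panels for dHep_IR against FL_IR, dHep_IR against FL_control and FL_IR against FL_control. Bars are 95% intervals for counting error only, dotted lines mark 2-fold, and open right-pointing triangles mark ratios to a library at 0, placed at the floor of 3 counts. Most points of the dHep_IR against FL_IR panel lie between the dotted lines, while Ggt1 stands far to the right and Ptgs2 far to the left for neutrophil-like cells in both panels against FL_control.

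In neutrophil-like cells of the irradiated livers, the CPM of Alox5ap was past the fold above FL_control, while that of Alox5 was not. Alox5ap stood at 5107 CPM in dHep_IR, 4751 CPM in FL_IR and 1476 CPM in FL_control, with a UMI in 99.7%, 100% and 96.1% of cells. It was 3.46-fold higher in dHep_IR than in FL_control (interval 3.32 to 3.60) and 3.22-fold higher in FL_IR than in FL_control (3.09 to 3.35), and dHep_IR stood at 1.07 times FL_IR. The 2 irradiated libraries were close and both clear of FL_control.

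Alox5 in the same cells stood at 127 CPM in dHep_IR, 136 CPM in FL_IR and 98.7 CPM in FL_control. Its ratios to FL_control, 1.29 for dHep_IR and 1.38 (1.18 to 1.62) for FL_IR, did not reach the fold, and dHep_IR stood at 0.935 times FL_IR. Relative to the median of all genes in the class, the log2 ratios of Alox5 to FL_control were 1.02 for dHep_IR and 1.04 for FL_IR. The share of neutrophil-like cells with an Alox5 UMI was 74.5% in dHep_IR, 70.3% in FL_IR and 27.0% in FL_control, but the cells had a median of 13266.5, 9852 and 3489 UMIs. With each cell thinned to 1000 UMIs the shares were 11.3%, 13.5% and 8.91%. In endothelial-like cells, which should lack the gene, 0.492%, 0.700% and 0.159% of cells had an Alox5 UMI at median depths of 5554, 5651 and 8422. The neutrophil-like cells compared came from different clusters, since the irradiated cells lay in clusters 22, 23, 24 and 26 and 451 of the 459 cells of FL_control in cluster 3. Granule genes summed to 12937 to 57396 CPM in the irradiated clusters, against 1166 CPM in cluster 3 of FL_control. Genes of the dissociation stress response summed to 2058 to 4413 CPM in the irradiated clusters, against 14020 CPM in cluster 3. The part of these differences in the member levels was not tested.

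Monocyte-like cells held Alox5ap at 1565 CPM in dHep_IR, 2056 CPM in FL_IR and 851 CPM in FL_control, and Kupffer-like cells at 387, 575 and 270 CPM. Against FL_control, dHep_IR reached 1.84-fold among monocyte-like and 1.44-fold among Kupffer-like cells, while FL_IR was past the fold at 2.42-fold (2.31 to 2.53) and 2.13-fold (1.99 to 2.28). With cells classed by their own marker score these 2 calls were lost at log2 ratios of 0.82 and 0.99, and the Kupffer-like one also with thinned cells at 0.98. Most monocyte-like cells of the irradiated libraries lay in cluster 28 (633 and 445 cells) and all 240 of FL_control in cluster 9. Within cluster 9 Alox5ap stood at 1038 CPM in dHep_IR, 1155 CPM in FL_IR (30 cells) and 851 CPM in FL_control, or 1.22-fold (1.16 to 1.28) above FL_control in dHep_IR. In Kupffer-like cells dHep_IR stood 1.48-fold below FL_IR. Alox5 itself was sparse there. It gave 138, 68 and 13 UMIs in monocyte-like cells (7.95, 12.2 and 5.06 CPM) and 19, 19 and 6 UMIs in Kupffer-like cells (4.88, 5.96 and 0.953 CPM). In monocyte-like cells FL_IR was 2.41-fold above FL_control (1.32 to 4.75), which became a log2 ratio of 0.68 once a dendritic sub-cluster (78, 3 and 96 cells) was left out. In Kupffer-like cells the folds against FL_control were 5.12 (1.97 to 15.7) for dHep_IR and 6.26 (2.40 to 19.1) for FL_IR.

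Low levels of both genes also appeared in endothelial-like cells, together with neutrophil markers. Alox5ap stood at 29.2 CPM in dHep_IR, 27.0 CPM in FL_IR and 3.11 CPM in FL_control, and Alox5 at 0.890, 1.22 and 0.325 CPM. Against FL_control, Alox5ap was 9.40-fold higher in dHep_IR (7.29 to 12.3) and 8.70-fold higher in FL_IR (6.73 to 11.4). In dHep_IR 109 of its 590 UMIs came from 1 cell. Alox5 was 2.74-fold (1.09 to 7.77) and 3.77-fold (1.56 to 10.4) higher, on 18, 22 and 7 UMIs. Of the 7 Alox5 UMIs of FL_control, 4 came from 1 cell. The 11 neutrophil markers summed to 1377, 1326 and 54.9 CPM in endothelial-like cells, with 11, 11 and 10 of them detected and Ly6g at 0 in FL_control. As a percentage of its level in neutrophil-like cells, Alox5ap reached 0.572% in dHep_IR, 0.569% in FL_IR and 0.210% in FL_control, and the neutrophil markers S100a8 and S100a9 together reached 0.328%, 0.340% and 0.043%. In Kupffer-like cells those markers reached 0.401%, 0.653% and 0.055%, while Alox5ap reached 7.58%, 12.1% and 18.3%. Another neutrophil marker, Retnlg, reached 0.457%, 0.447% and 0.031% in endothelial-like cells. The Alox5ap share was thus above those of these markers in endothelial-like cells of every library, and further above them in Kupffer-like cells. Alox5 reached 0.698%, 0.898% and 0.329% in endothelial-like cells. The part of neutrophil RNA in these levels was not tested. In cholangiocyte-like cells (bile duct lining), Alox5ap gave 92 UMIs in dHep_IR and 2 in FL_control, an 11.0-fold ratio (2.97 to 92.6). With cells classed by their own marker score its log2 ratio was -0.065, so the call was lost. In cluster 16, which holds most of these cells, granule genes of neutrophils summed to 373 CPM in dHep_IR and 8.32 CPM in FL_control, at median depths of 32012 and 868 UMIs, and their part was not tested.

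Lta4h, the enzyme that completes leukotriene B4, was spread over all main classes. In neutrophil-like cells it stood at 37.5 CPM in dHep_IR, 28.5 CPM in FL_IR and 12.5 CPM in FL_control, where it rested on 21 UMIs. The folds against FL_control were 3.01 (1.96 to 4.88) for dHep_IR and 2.29 (1.48 to 3.72) for FL_IR. With cells thinned to 1000 UMIs the log2 ratios came to 0.26 and 0.07, so both calls were lost. Within the irradiated clusters, Lta4h followed the granule genes. It stood at 49.8 CPM in dHep_IR and 53.8 CPM in FL_IR in cluster 24, at 47.3 and 48.2 CPM in cluster 26, at 18.7 and 18.7 CPM in cluster 22 and at 15.7 and 17.0 CPM in cluster 23. The first pair of clusters had the highest granule gene sums (49359 to 57396 CPM). The libraries differed little within any cluster, whereas cluster 24 held 784 cells of dHep_IR and 344 of FL_IR.

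In endothelial-like cells Lta4h went the other way, with 31.8 CPM in dHep_IR, 34.0 CPM in FL_IR and 62.3 CPM in FL_control. These are 1.96-fold and 1.83-fold lower than FL_control and fell just short of the fold. Levels among monocyte-like cells were 44.4, 33.0 and 36.6 CPM, those of Kupffer-like cells were 13.4, 23.2 and 21.0 CPM, and neither class had a call. T-like cells had 35.5, 32.9 and 36.6 CPM. NK or ILC1-like cells had 54.5 CPM in dHep_IR, 111.5 CPM in FL_IR (23 UMIs in 31 cells) and 105 CPM in FL_control.

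**Figure D3:**
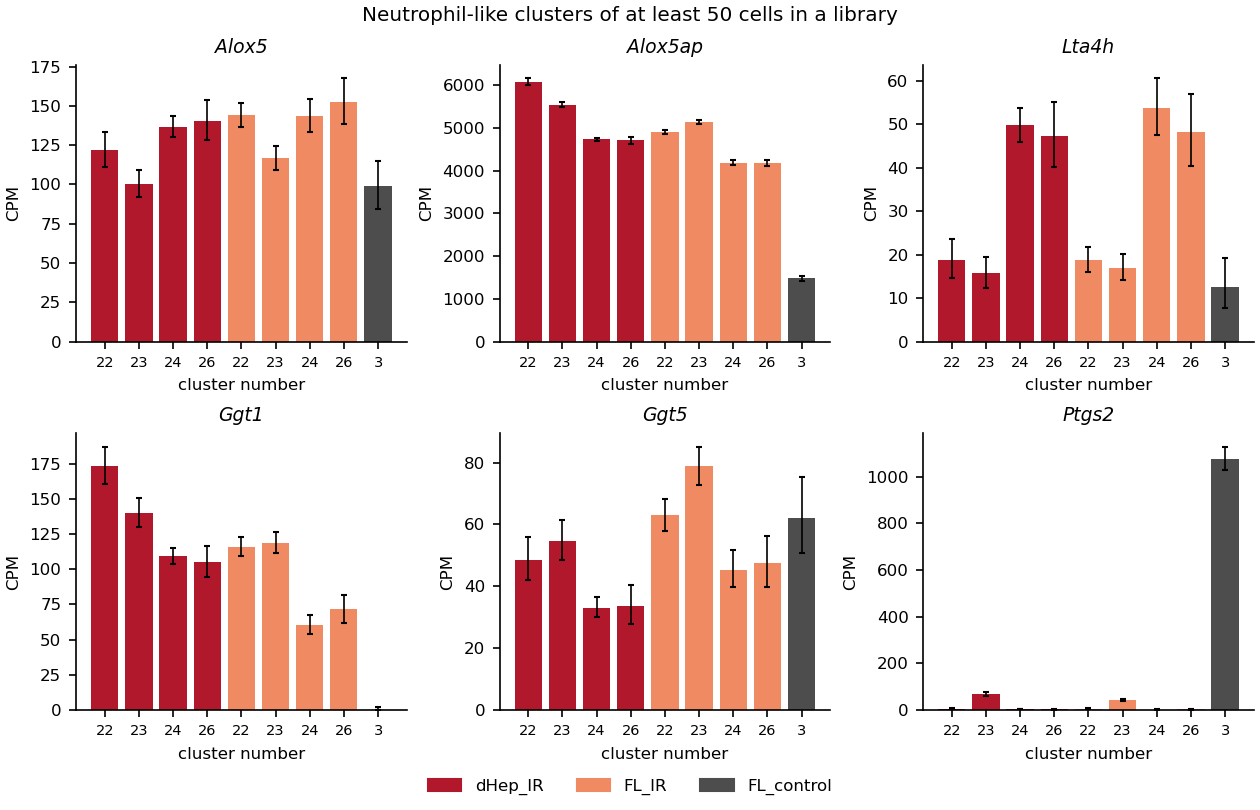
Level in CPM of Alox5, Alox5ap, Lta4h, Ggt1, Ggt5 and Ptgs2 in clusters 22, 23, 24 and 26 of the neutrophil-like cells of dHep_IR and FL_IR and in cluster 3 of FL_control. Bars are sums over the cells of 1 cluster and library, and error bars are 95% Poisson intervals for counting error only. Lta4h stands between 47.3 and 53.8 CPM in clusters 24 and 26 and at most at 18.7 CPM elsewhere, Ggt1 is at 0 in cluster 3, and Ptgs2 is high in cluster 3 (1080 CPM).

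Ltc4s, which commits leukotriene A4 to the cysteinyl leukotrienes, had most of its UMIs in the irradiated livers in endothelial-like cells. Their level was 139 CPM in dHep_IR (2809 UMIs), 275 CPM in FL_IR (4938 UMIs) and 63.4 CPM in FL_control (1368 UMIs). Both irradiated libraries were above FL_control, dHep_IR by 2.19-fold (2.05 to 2.34) and FL_IR by 4.33-fold (4.08 to 4.60). dHep_IR was 1.98-fold lower than FL_IR (1.89 to 2.07), just inside the 2-fold line and so not called. A UMI was present in 36.7%, 50.5% and 27.6% of endothelial-like cells, and in 10.4%, 18.9% and 5.42% after thinning to 1000 UMIs. In neutrophil-like cells the shares were 2.32%, 1.54% and 2.61%. Sinusoidal endothelial markers summed to 12612, 10729 and 25242 CPM in these cells.

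The irradiated endothelial-like cells lay mainly in clusters 18, 19, 21, 25 and 27, and those of FL_control in clusters 0 and 1. Cluster 27, where Ltc4s was highest in dHep_IR and second to cluster 21 in FL_IR, held 188 cells of dHep_IR and 1100 of FL_IR, at 300 and 370 CPM. The ratio of dHep_IR to FL_IR was below 1 within each of the 6 shared clusters, at 0.811 in cluster 27, 0.821 in cluster 18 (126 and 153 CPM), 0.655 in cluster 4, 0.588 in cluster 25, 0.549 in cluster 19 and 0.508 in cluster 21 (192 and 379 CPM). The lower class level in dHep_IR thus went with fewer cells in cluster 27 and with lower levels inside clusters. Cluster 4 was the one endothelial-like cluster that all 3 libraries shared in numbers, with 116, 85 and 56 cells. There Ltc4s stood at 67.9 CPM in dHep_IR, 104 CPM in FL_IR and 14.5 CPM in FL_control, or 4.69-fold (2.43 to 9.91) and 7.15-fold (3.76 to 14.99) above FL_control.

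**Figure D4:**
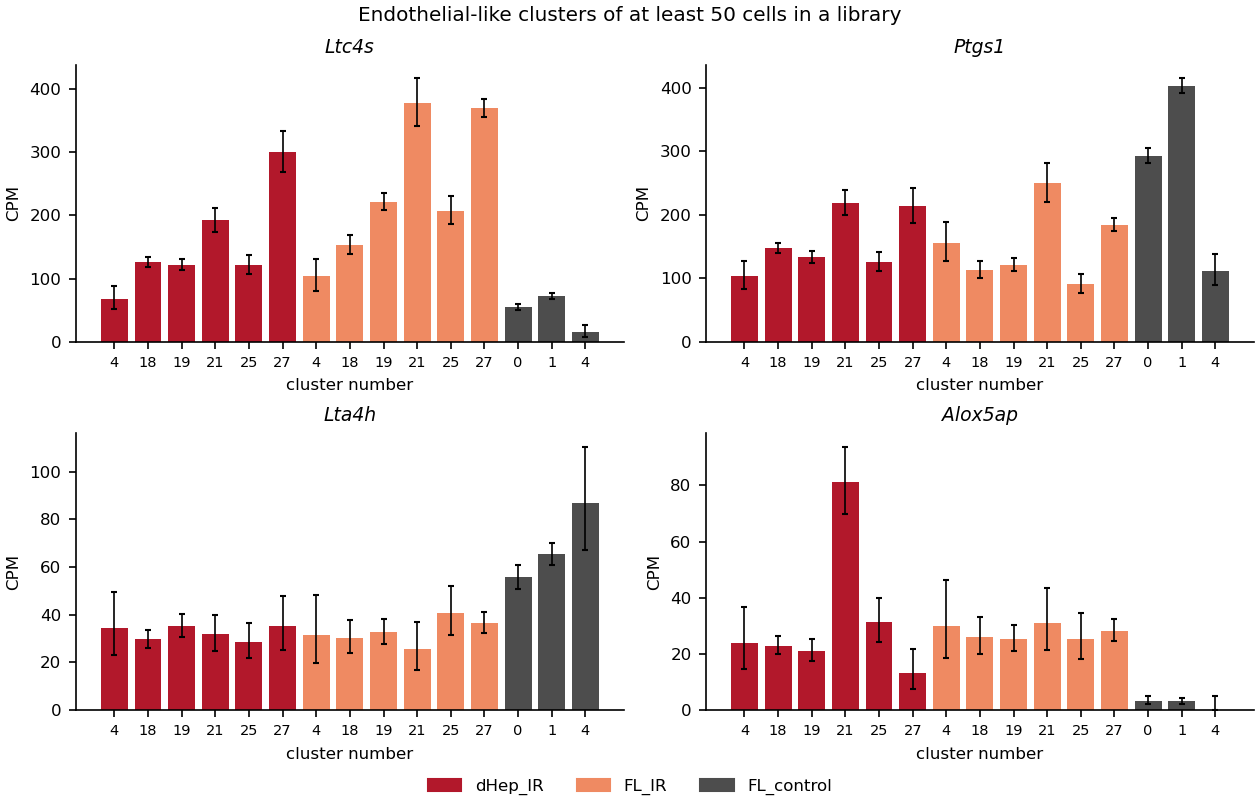
Level in CPM of Ltc4s, Ptgs1, Lta4h and Alox5ap by cluster of the endothelial-like cells, clusters 4, 18, 19, 21, 25 and 27 for dHep_IR and FL_IR and clusters 0, 1 and 4 for FL_control. Bars are sums over the cells of 1 cluster and library, with 95% Poisson intervals for counting error only. Ltc4s is lower in dHep_IR than in FL_IR in each shared cluster and stands highest in clusters 27 (300 and 370 CPM) and 21 (192 and 379 CPM).

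In Kupffer-like cells Ltc4s stood at 17.7 CPM in dHep_IR (69 UMIs), 38.6 CPM in FL_IR (123 UMIs) and 56.6 CPM in FL_control (356 UMIs). dHep_IR was 3.19-fold lower than FL_control (2.46 to 4.19) and 2.18-fold lower than FL_IR (1.61 to 2.97), and within cluster 5 alone, which holds most irradiated Kupffer-like cells, 2.08-fold lower than FL_IR. FL_IR was 1.46-fold lower than FL_control. The call between dHep_IR and FL_IR was lost under TMM scaling (log2 ratio -0.99) and with a stricter cell filter (-0.96). It was also lost with doublets kept (-0.78) and with cells classed by their own marker score (-0.92). Monocyte-like cells had 7.61, 3.76 and 6.62 CPM. There dHep_IR was 2.02-fold above FL_IR (1.27 to 3.37) with 24 of its 132 UMIs in 1 cell, and inside cluster 28 the levels were 3.38 and 3.04 CPM. Neutrophil-like cells had 2.16, 1.48 and 8.33 CPM, a 3.86-fold (1.98 to 7.05) and 5.63-fold (2.81 to 10.7) lower level than the 14 UMIs of FL_control. With doublets kept those log2 ratios came to -0.21 and 0.25. Ltc4s in NK or ILC1-like cells gave 15 UMIs in dHep_IR and 5 in FL_control, 12 of the 15 in 1 cell.

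Ggt1 marked the neutrophil-like cells of the irradiated livers and gave no UMI in those of FL_control. Its level was 125 CPM in dHep_IR (3136 UMIs), 101 CPM in FL_IR (2522 UMIs) and 0 in FL_control, where the floor of 3 counts corresponds to 1.78 CPM. With FL_control set to that floor, Ggt1 was 70.2-fold higher in dHep_IR and 56.5-fold higher in FL_IR. The exact intervals of these ratios start at 57.1 and 45.9. A UMI was present in 65.2% and 54.3% of the irradiated neutrophil-like cells and in 0 of 459 cells of FL_control, which allows a share of up to 0.654% at a floor of 3 counts and 0.8005% by the exact interval. After thinning, the shares were 11.9% and 9.86%. In endothelial-like cells of dHep_IR and FL_IR they were 0.695% and 0.700% as sequenced and 0.0898% and 0.104% after thinning. Ggt1 was not absent from FL_control as a whole, which had 36 UMIs, 29 of them in T-like cells. That class had 16.3 CPM in dHep_IR, 15.1 CPM in FL_IR and 10.3 CPM in FL_control.

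dHep_IR stood 1.24-fold above FL_IR for Ggt1 in neutrophil-like cells (1.18 to 1.31), below the fold. The same direction held within each of the 4 irradiated clusters, with 174 and 116 CPM in cluster 22, 140 and 119 CPM in cluster 23, 110 and 60.5 CPM in cluster 24 and 105 and 71.5 CPM in cluster 26. In monocyte-like cells Ggt1 had 5.19 CPM in dHep_IR (90 UMIs), 1.43 CPM in FL_IR (8 UMIs) and 0 in FL_control. Ggt1 was 3.62-fold higher in dHep_IR than in FL_IR (1.76 to 8.63). With FL_control set to the floor, Ggt1 was 4.44-fold higher in dHep_IR (exact interval from 3.54). Neutrophil markers moved with it, summing to 22796, 10003 and 352 CPM in monocyte-like cells, and their part in the Ggt1 level was not tested. In endothelial-like cells Ggt1 gave 27, 21 and 1 UMIs, with ratios to FL_control of 28.8 (4.75 to 1180) and 25.2 (4.05 to 1040), at 1.07% and 1.16% of the neutrophil-like level.

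Ggt5, the neighbouring gene and the transferase known for its preference for leukotriene C4, did not follow Ggt1. In neutrophil-like cells it stood at 40.0 CPM in dHep_IR, 62.7 CPM in FL_IR and 61.85 CPM in FL_control. FL_IR stood at 1.01 times FL_control and dHep_IR 1.55-fold below it. dHep_IR was 1.57-fold lower than FL_IR (1.45 to 1.70), with within-cluster ratios of 0.771, 0.692, 0.729 and 0.708 in clusters 22, 23, 24 and 26. Ggt1 and Ggt5 thus differed in sign between dHep_IR and FL_IR in all 4 clusters, neither past the fold at class level.

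In monocyte-like cells Ggt5 had 17.4 CPM in dHep_IR (302 UMIs), 38.0 CPM in FL_IR (212 UMIs) and 5.06 CPM in FL_control (13 UMIs). The folds against FL_control were 3.44 (1.98 to 6.54) and 7.51 (4.30 to 14.3), and dHep_IR was 2.18-fold lower than FL_IR (1.82 to 2.61). Within cluster 28 the levels were 21.3 and 39.0 CPM, and within cluster 9 they were 12.1, 22.1 and 5.06 CPM. FL_control had no cell in cluster 28, and the cluster 9 value of FL_IR rests on 7 UMIs in 30 cells, with an interval (8.90 to 45.6) that takes in the level of dHep_IR. In Kupffer-like cells Ggt5 had 8.48, 16.0 and 14.3 CPM, with dHep_IR 1.89-fold below FL_IR and no call.

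Ptgs1, the constitutive cyclooxygenase, was a gene of Kupffer-like and endothelial-like cells in every library. Kupffer-like cells held it at 553 CPM in dHep_IR, 581 CPM in FL_IR and 638 CPM in FL_control, with FL_IR at 0.911 times FL_control and dHep_IR at 0.953 times FL_IR. Endothelial-like cells had 151 CPM in dHep_IR, 151 CPM in FL_IR and 351 CPM in FL_control. Both irradiated libraries were 2.32-fold lower than FL_control there (2.23 to 2.42 for dHep_IR and 2.22 to 2.42 for FL_IR), and dHep_IR stood at 0.997 times FL_IR. A UMI was present in 47.0%, 45.8% and 78.1% of endothelial-like cells, and after thinning in 12.7%, 13.4% and 26.7%. T-like cells, at median depths of 5804.5, 5878 and 6511 UMIs, had one in 2.45%, 0.877% and 4.24%. In the shared endothelial-like cluster 4 the levels were 104, 156 and 112 CPM, so the lower level of the irradiated class was not seen in that cluster.

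Ptgs1 also gave 12.7 CPM in dHep_IR, 14.0 CPM in FL_IR and 28.0 CPM in FL_control in neutrophil-like cells, the last from 47 UMIs. dHep_IR was 2.20-fold lower than FL_control (1.58 to 2.997), and FL_IR was 1.997-fold lower without reaching the call. The call for dHep_IR was lost under TMM scaling (log2 ratio -0.22), per-cell means (-0.91), kept doublets (-0.19) and thinned cells (-0.55). Monocyte-like cells were level, at 22.7, 18.1 and 23.4 CPM. NK or ILC1-like cells had 4 UMIs in dHep_IR and 20 in FL_control, a 2.59-fold lower level whose interval (0.868 to 10.4) takes in no change. Of these, 3 of the 4 and 7 of the 20 UMIs came from 1 cell each.

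Ptgs2, the inducible cyclooxygenase, was high in neutrophil-like cells of the unirradiated liver and low in those of both irradiated livers. The level was 16.4 CPM in dHep_IR (410 UMIs), 16.0 CPM in FL_IR (399 UMIs) and 1067 CPM in FL_control (1794 UMIs). dHep_IR was 65.2-fold lower than FL_control (58.5 to 72.7) and FL_IR 66.9-fold lower (60.0 to 74.7), while dHep_IR stood at 1.03 times FL_IR. A UMI was present in 8.22%, 8.80% and 77.8% of neutrophil-like cells, and after thinning in 2.44%, 2.13% and 51.9%. FL_control was highest before and after thinning, while the order of dHep_IR and FL_IR changed. In endothelial-like cells the shares were 0.608%, 0.167% and 0.993%. Dissociation stress genes summed to 2668, 3618 and 13976 CPM in neutrophil-like cells, and their part in the Ptgs2 level was not tested. Among irradiated cells Ptgs2 was highest in cluster 23, at 67.5 CPM in dHep_IR and 42.6 CPM in FL_IR, against 1.19 to 5.21 CPM in the other irradiated clusters.

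Monocyte-like cells carried most of the Ptgs2 of the irradiated livers, 87.5% of the UMIs in dHep_IR and 57.9% in FL_IR, against 9.62% in FL_control. The level there was 189 CPM in dHep_IR (3283 UMIs), 112 CPM in FL_IR (625 UMIs) and 113 CPM in FL_control (291 UMIs). dHep_IR was 1.69-fold above FL_IR (1.55 to 1.84) and 1.67-fold above FL_control, under the fold, and FL_IR stood at 0.989 times FL_control. Inside cluster 28 the levels were 147 and 116 CPM, and inside cluster 9 they were 247, 53.8 (17 UMIs) and 113 CPM. Cluster 9 held 533 cells of dHep_IR and 30 of FL_IR, so the class levels weigh the clusters differently.

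The other Ptgs2 calls rested on few cells. Kupffer-like cells had 5.91 CPM in dHep_IR (23 UMIs), 12.6 CPM in FL_IR (40 UMIs) and 3.496 CPM in FL_control (22 UMIs), where 15 of the 23 and 34 of the 40 UMIs came from 1 cell each. dHep_IR against FL_IR was 2.13-fold lower (1.24 to 3.72) and FL_IR against FL_control 3.59-fold higher (2.08 to 6.35). Without barcodes seen in more than 1 library these became log2 ratios of 1.62 and -0.79, opposite in sign. Endothelial-like cells had 22 UMIs in dHep_IR, 5 in FL_IR and 26 in FL_control, 3.91-fold higher in dHep_IR than in FL_IR (1.45 to 13.2) and 4.33-fold lower in FL_IR than in FL_control (1.64 to 14.5).

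Ptges, the inducible prostaglandin E synthase, was rare, with 522 UMIs over all kept cells, and lay in monocyte-like and neutrophil-like cells of the irradiated livers. In monocyte-like cells it gave 12.5 CPM in dHep_IR (217 UMIs), 5.199 CPM in FL_IR (29 UMIs) and 0.389 CPM in FL_control (1 UMI). dHep_IR was 2.41-fold above FL_IR (1.63 to 3.68). The ratios to the single UMI of FL_control were 32.1 (5.71 to 1275) for dHep_IR and 13.4 (2.21 to 546) for FL_IR. Within cluster 28 the levels were 4.67 and 5.32 CPM, a ratio of 0.878 (0.538 to 1.46), and within cluster 9 they were 23.3, 3.16 and 0.389 CPM. The higher class level of dHep_IR was therefore found in cluster 9, where FL_IR had 1 UMI, and not in cluster 28.

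In neutrophil-like cells Ptges had 6.27 CPM in dHep_IR (157 UMIs), 2.72 CPM in FL_IR (68 UMIs) and 1.78 CPM in FL_control (3 UMIs). dHep_IR was 2.31-fold above FL_IR (1.72 to 3.11) and stood at 3.51 times FL_control (1.18 to 17.2), and FL_IR at 1.52 times FL_control (0.50 to 7.57). In dHep_IR 53 of the 157 UMIs came from 1 cell whose barcode also occurred in another library. Without such barcodes the level in dHep_IR was 4.14 CPM and the log2 ratio to FL_IR 0.60, below the fold. Of the 3 UMIs of FL_control, 2 also came from 1 cell with such a barcode, and with per-cell means the log2 ratio of dHep_IR to FL_control turned to -1.10. Kupffer-like cells had 1 UMI in each library.

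Ptgis, prostacyclin synthase, was found in Kupffer-like cells of the unirradiated liver and in stellate or fibroblast-like cells of every library. It was also found in the unnamed cluster 17 of FL_control, at 427 CPM. Kupffer-like cells had 2.83 CPM in dHep_IR (11 UMIs), 1.57 CPM in FL_IR (5 UMIs) and 95.8 CPM in FL_control (603 UMIs). dHep_IR was 33.9-fold lower than FL_control (18.8 to 68.3) and FL_IR 61.0-fold lower (26.0 to 189). A UMI was present in 2.10%, 1.10% and 48.0% of Kupffer-like cells, and after thinning in 0%, 0.241% and 8.68%. Neutrophil-like cells had no Ptgis UMI in any library. The Kupffer-like cells compared lay in cluster 5 in the irradiated libraries (362 and 451 cells) and in cluster 15 in FL_control (544 cells).

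Stellate or fibroblast-like cells numbered only 14, 17 and 30. They held Ptgis at 597 CPM in dHep_IR (83 UMIs), 255 CPM in FL_IR (30 UMIs) and 608 CPM in FL_control (269 UMIs), too few cells for a comparison under the rule of 50 cells. Endothelial-like cells, although endothelium is a textbook source of prostacyclin, gave 8, 10 and 23 UMIs in 3455, 3001 and 2517 cells. That is 0.396, 0.556 and 1.07 CPM, 2.69-fold lower in dHep_IR than in FL_control (1.16 to 6.97). Among the classes captured, prostacyclin synthase RNA was thus seen mainly outside the endothelial-like cells.

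**Figure D5:**
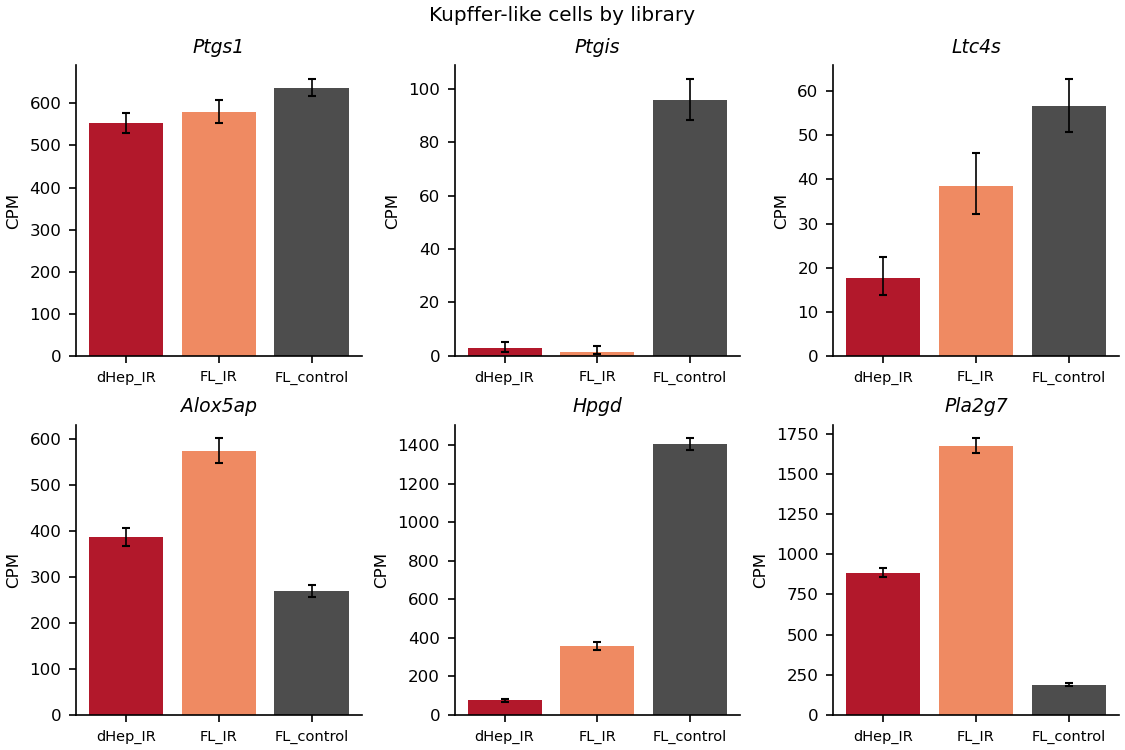
Level in CPM of Ptgs1, Ptgis, Ltc4s, Alox5ap, Hpgd and Pla2g7 in Kupffer-like cells of dHep_IR, FL_IR and FL_control. Bars are class sums of 1 library with 95% Poisson intervals for counting error only. Ptgs1 lies between 553 and 638 CPM in all 3 libraries, Ptgis is at 2.83 CPM in dHep_IR and 1.57 CPM in FL_IR, against 95.8 CPM in FL_control, and Hpgd is lowest in dHep_IR (76.0 CPM, against 358 CPM in FL_IR and 1406 CPM in FL_control).

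Around the members, 42 further genes of both pathways were listed, and the 41 with 1 row in the files were counted by the same call. For dHep_IR against FL_IR the called numbers were 3 higher and 2 lower of 24 tested in neutrophil-like cells, 0 of 24 in monocyte-like cells, 1 higher and 2 lower of 23 in Kupffer-like cells, and 1 higher and 1 lower of 24 in endothelial-like cells. For dHep_IR against FL_control, 5 were higher and 11 lower of 22 in neutrophil-like cells, 7 and 4 of 25 in monocyte-like cells, 3 and 7 of 25 in Kupffer-like cells, and 5 and 11 of 27 in endothelial-like cells. For FL_IR against FL_control, 4 were higher and 10 lower of 21, 6 and 7 of 24, 3 and 3 of 25, and 4 and 11 of 25 in the same order of classes. Of all genes, called either way, the shares in neutrophil-like, monocyte-like, Kupffer-like and endothelial-like cells were 7.40%, 11.4%, 11.5% and 3.84% for dHep_IR against FL_IR, 47.6%, 24.4%, 21.3% and 27.2% for dHep_IR against FL_control, and 42.5%, 24.4%, 18.5% and 25.9% for FL_IR against FL_control.

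Genes of the list are named here for the size of their ratios. Hpgd, the dehydrogenase that inactivates prostaglandins, had 76.0 CPM in dHep_IR, 358 CPM in FL_IR and 1406 CPM in FL_control in Kupffer-like cells. It was 4.71-fold lower in dHep_IR than in FL_IR (4.14 to 5.37) and 3.93-fold lower in FL_IR than in FL_control (3.69 to 4.18). In monocyte-like cells Hpgd had 6.28, 7.53 and 150 CPM. Pla2g7, which breaks down platelet-activating factor, had 885, 1675 and 189 CPM in Kupffer-like cells, 4.67-fold and 8.84-fold above FL_control. Hpgds, which makes prostaglandin D2, had 14.1 CPM in Kupffer-like cells of dHep_IR and 35.8 CPM in those of FL_IR. Alox15, a lipoxygenase of resident macrophages, had 0, 0 and 6.99 CPM. With dHep_IR and FL_IR set to the floor, Alox15 was 9.07-fold and 7.42-fold lower than in FL_control. These folds rest on the floor and are not lower bounds.

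Ltb4r1, the high-affinity leukotriene B4 receptor, had 341 CPM in dHep_IR, 228 CPM in FL_IR and 60.1 CPM in FL_control in neutrophil-like cells, 5.67-fold (4.66 to 6.97) and 3.80-fold (3.13 to 4.68) above FL_control. In Kupffer-like cells Ltb4r1 had 15.4, 6.28 and 0.159 CPM, the last from 1 UMI. Mgst2, which can also make leukotriene C4, had 54.6, 61.6 and 11.3 CPM in neutrophil-like cells and 20.5, 34.1 and 2.72 CPM in monocyte-like cells. Cyp4f18, which inactivates leukotriene B4 in mouse neutrophils, had 98.4, 255 and 598 CPM in neutrophil-like cells, so it was 2.59-fold lower in dHep_IR than in FL_IR (2.47 to 2.72). Ptgr1, a reductase that inactivates leukotriene B4 and prostaglandins, had 8.35 CPM in neutrophil-like cells of dHep_IR and 2.76 CPM in those of FL_IR, 3.03-fold higher (2.29 to 4.03).

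Fpr2, the lipoxin receptor, had 121, 173 and 13.2 CPM in monocyte-like cells, 9.16-fold (6.53 to 13.3) and 13.05-fold (9.27 to 18.95) above FL_control. In FL_control 96 of the 240 cells of that class lay in dendritic sub-clusters, and their part in these ratios was not tested. In endothelial-like cells Tbxa2r, the thromboxane receptor, had 15.6, 19.0 and 80.9 CPM, and Cysltr2, a cysteinyl leukotriene receptor, had 4.35, 3.73 and 25.3 CPM, both past the fold below FL_control in both irradiated libraries. Ptgir, the prostacyclin receptor, went the other way at low levels, with 1.53 CPM in dHep_IR (31 UMIs), 3.34 CPM in FL_IR (60 UMIs) and 0.185 CPM in FL_control (4 UMIs). In neutrophil-like cells the prostaglandin E2 receptor Ptger4 had 0.919, 0.760 and 7.14 CPM and the eicosanoid exporter Abcc4 had 2.64, 1.88 and 12.5 CPM, on 12 and 21 UMIs in FL_control.

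Partner enzymes were found in the same cells to very different degrees. Of neutrophil-like cells with an Alox5 UMI, 100% in dHep_IR, 99.9% in FL_IR and 98.4% in FL_control also had an Alox5ap UMI, which most neutrophil-like cells had in any case. Of those with a Ptgs2 UMI, 0.658%, 0.485% and 0.280% also had one of Ptges, and of monocyte-like cells with a Ptgs2 UMI, 8.99%, 7.14% and 0%. Among all cells of these classes, Ptges was present in 5.35%, 2.56% and 0.436% of neutrophil-like and 7.89%, 5.47% and 0.417% of monocyte-like cells. Ggt5 was present in 39.7% of the Ggt1-positive neutrophil-like cells of dHep_IR and in 44.5% of those of FL_IR, against 38.5% and 45.9% among all neutrophil-like cells. Of endothelial-like cells with an Ltc4s UMI, 57.2%, 53.7% and 89.5% had one of Ptgs1, where 47.0%, 45.8% and 78.1% of all such cells had one. These shares follow depth, and a missing UMI does not show a missing transcript.

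Over 42 sums of a cluster within a library, with 11790 genes searched, the gene whose log2(CPM + 1) ran most like that of a member was named, as a description over points that share libraries and depth. Alox5 ran with Padi4 (Pearson r 0.97), Alox5ap with Pirb (0.96), Ggt5 with Pram1 (0.92) and Ggt1 with Itgb2l (0.90). Ptgs1 ran with Plod1 (0.94). Likeness was lower for Ptgs2 (Gm36161, 0.88), Ptges (Fam20c, 0.83), Ptgis (Gbp2b, 0.80) and Lta4h (H4c4, 0.67), the member spread most evenly over the classes.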

How the data were processed

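Single liver cells were captured in droplets and sequenced with 10x 3′ chemistry, per the labels' protocols. The authors deposited raw counts of UMIs for each gene in each barcode, whole and without normalization. The submitters' processing notes name Cell Ranger 6.1.1, CASAVA 1.8, Seurat 4.0.3 and the mm10 build. Libraries held 8214 barcodes and 78694038 UMIs (dHep_IR), 7265 and 59228905 (FL_IR) and 7393 and 52858425 (FL_control). No correction for free RNA was applied.

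Kept cells had at least 500 UMIs, 250 genes and at most 25% mitochondrial UMIs. Scrublet in scanpy 1.11.5, at an expected rate of 6%, marked 291, 235 and 160 doublets (3.85%, 3.47% and 2.42%), which were removed. Leiden clustering (igraph 0.11.9) used 2000 variable genes, which include Alox5ap, Ltc4s, Ptgs2, Ptges and Ptgis, 30 components, 15 neighbours and resolution 1, with no batch integration. Clusters were named from marker lists under details set after the clusters were seen. UMIs were added up over the cells of a class in each library and given as CPM of that total. With 1 library per group no test was possible and no p-value is given. Intervals are 95% exact intervals (Poisson, Clopper-Pearson, conditional). Log2 ratios have a prior count of 0.5. A called value is at least 2-fold with at least 20 UMIs over both libraries, in classes of at least 50 cells in both. A library at 0 was set to a floor of 3 counts over the class. Alternatives included TMM factors (edgeR 4.0.16), thinning to 1000 UMIs, kept doublets and other cell filters. Calculations were tested on simulated data.

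The members, the 42 pathway genes, the markers and the rule for named genes were chosen with earlier results of these data known. That rule names the members, up to 4 pathway genes per class and comparison by absolute log2 ratio, and the genes most like each member, of which 1 result is not reported here. Ltb4r1 and Mgst2 in neutrophil-like cells, Cyp4f18, Tbxa2r and Cysltr2 against FL_control were added after their values were seen. Dpep2, on more than 1 row, was left out.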

Additional observations from a re-analysis of the deposited data

Results flagged for a closer look

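Ltc4s went past the fold in opposite directions in different classes of the same comparison. For FL_IR against FL_control its log2 ratio was 2.11 in endothelial-like and -2.52 in neutrophil-like cells. For dHep_IR against FL_control it was 1.13 in endothelial-like and 2.44 in NK or ILC1-like cells, but -1.67 in Kupffer-like and -1.99 in neutrophil-like cells. For dHep_IR against FL_IR it was 0.99 in monocyte-like and -1.12 in Kupffer-like cells.

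Ptgs2 did so as well. For FL_IR against FL_control its log2 ratio was 1.83 in Kupffer-like cells, -2.01 in endothelial-like and -6.06 in neutrophil-like cells. For dHep_IR against FL_IR it was -1.08 in Kupffer-like and 1.86 in endothelial-like cells. The Kupffer-like values rest on single cells, as described above. None of these differences between classes was tested.

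Members also stood higher in FL_control cells of clusters without a class name than in its neutrophil-like, monocyte-like, Kupffer-like, endothelial-like or T-like cells. In cluster 17 (79 cells of FL_control) Alox5 had 157 CPM, Ltc4s 1114 CPM, Ptges 17.2 CPM and Ptgis 427 CPM. In cluster 7, with 240 cells of FL_control and both T and NK markers, Lta4h had 71.6 CPM. That is below the 105 CPM of the NK or ILC1-like cells of FL_control.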

How the results depend on the processing

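Of the 15 settings, those with at least 100 UMIs, at least 1 UMI or 3-fold change only which values are called. Under the others the 49 called values were recomputed, which gave 541 values. A called value without enough UMIs or cells under a setting gave none there and is not counted as lost. Of these, 33 fell short of the fold, spread over 15 of the called values, and 10 changed sign. The lost calls came from doublets kept (7), per-cell means (7), each class's own marker score (5), thinned cells (4), TMM factors (3), a stricter cell filter (3), shared barcodes left out (2, chosen after seeing the data), resolution 2 (1) and dendritic sub-clusters left out (1).

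The sign changes were as follows. Ptgs2 in Kupffer-like cells for FL_IR against FL_control came to -0.087 with per-cell means, -0.201 with the stricter filter, -3.01 with the marker score and -0.789 without shared barcodes. Ptgs2 in Kupffer-like cells for dHep_IR against FL_IR came to 0.281, 2.13 and 1.62 with per-cell means, the marker score and without shared barcodes. Ltc4s in neutrophil-like cells for FL_IR against FL_control came to 0.253 with doublets kept. For dHep_IR against FL_control, Alox5ap in cholangiocyte-like cells came to -0.065 with the marker score and Ptges in neutrophil-like cells to -1.10 with per-cell means. The causes of these sign changes were not tested.

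The number of called values moved most with the marker score, to 30 for dHep_IR against FL_IR (8 as reported), 57 for dHep_IR against FL_control (22) and 57 for FL_IR against FL_control (19), among 84, 101 and 95 values with enough UMIs and cells. With at least 100 UMIs the counts were 5, 13 and 11, and with thinned cells 3, 10 and 9. With at least 1 UMI dHep_IR against FL_control gave 36. dHep_IR against FL_IR gave 5 under the stricter filter and 2 at 3-fold.

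No paired analysis was possible because each group has 1 library, and no library was left out for the same reason. Depth limits Ptges, with 522 UMIs in all, and Alox5 and Ggt1 outside neutrophil-like cells, with at most 138 UMIs in any other named class of a library.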
